A study of Mus musculus with 3 samples.

Results

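Red blood cell formation is driven by a small circuit of transcription factors, and the promoters of 10 of these regulators are described here by the DNA they touched in mouse erythroid cells. The 10 genes are Klf1, Tal1, Nfe2, Zfpm1, Lmo2, Ldb1, Gfi1b, Klf3, Klf13 and Tcf3. They were found by exact match of the gene symbol within the names of the targeted promoter fragments, which gave 16 viewpoints of 7176 with contacts and a position. No gene of the 10 lacked a viewpoint. Lmo2 and Tal1 had 2 viewpoints each, Nfe2 had 5, and the other 7 genes had 1 each. Viewpoints of the same gene are separate fragments of a single locus and are not replicates.

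Contacts were measured by NuTi Capture-C, in which cross-linked chromatin is cut with the restriction enzyme DpnII (recognition site GATC), ligated inside intact nuclei, and enriched for chosen promoter fragments with oligonucleotide probes. The cells came from the spleens of F1 hybrid (C57BL/6-cross-CBA/J) mice made anaemic with phenylhydrazine, an agent that destroys red cells. Mice received 3 doses 12 h apart, were killed on day 5, and their spleen cells were selected for the erythroid surface marker ter119. There were 3 libraries of this 1 group and no other cell type, so no comparison between conditions was possible. The age of the mice and whether each library came from a separate animal are not given in the labels, so errors measure the spread between libraries. Contact data hold no expression values, so the labelled cell type was not checked against its markers. The values are averages over many nuclei, in which a contact made in fewer cells and a contact made less often in each cell cannot be told apart.

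The DNA-binding members work through shared complexes. Tal1 pairs with E proteins such as Tcf3 on E-box sequences, and Lmo2 and Ldb1 bridge this pair to GATA1 on composite sites that join part of an E-box to a GATA motif. Zfpm1, also called FOG1, is the cofactor of GATA1. Klf1 activates globin and other erythroid genes through CACCC boxes, Klf3 represses through the same boxes, and Klf13 is a further family member. Nfe2 joins small MAF proteins on a longer motif in globin control regions, and Gfi1b represses genes through histone-modifying partners.

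Since the deposited columns carried no replicate number, the letters a, b and c name the libraries here. They held 18230099, 34428035 and 34233560 cis events, each a distinct ligation that joined a viewpoint to a fragment elsewhere on its own chromosome. Over 5 kb windows of all viewpoints, the chi-square per window was 1.02 between libraries b and c, 1.17 between a and b and 1.17 between a and c, where counting error alone gives a value near 1. Since libraries b and c differed by little more than counting error, they were counted as 1 sample, and each mean ± SD has n = 2, library a and the mean of b and c. This is a cautious count and does not show that b and c are 1 library: the study describes 3 independent libraries. The SD leaves out the spread between b and c and can be smaller than the spread over the 3 libraries. The 3 library values are therefore given where a result turns on them. Over the transcription factor viewpoints the median squared correlation of windows was 0.867 between a and b and 0.897 between b and c, and the lowest value between a and b was 0.531, for Zfpm1.

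The 16 viewpoints held 1500 to 17416 cis events over the 3 libraries, with a median of 5461.5, beside a median of 6481.5 over all viewpoints. Klf13 was the deepest with 3968, 6792 and 6656 events in libraries a, b and c. Tal1_b, with 383, 542 and 575 events, and Zfpm1, with 344, 602 and 581, were the shallowest. All 16 passed the minimum of 1000 events used for testing.

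The sequences below show the promoter letters that carry a GATA-type motif, because GATA1, a partner of Tal1, Lmo2, Ldb1 and Zfpm1, binds such motifs. Each is the 250 bases before a transcript start inside the viewpoint, read 5′ to 3′ on the gene's strand of mm9, and capitals mark a match to AGATAA or to the long-spaced composite (CTG and GATA parted by 8 bases) on either strand.
Klf1 promoter, chr8:87425577-87425826, plus strand: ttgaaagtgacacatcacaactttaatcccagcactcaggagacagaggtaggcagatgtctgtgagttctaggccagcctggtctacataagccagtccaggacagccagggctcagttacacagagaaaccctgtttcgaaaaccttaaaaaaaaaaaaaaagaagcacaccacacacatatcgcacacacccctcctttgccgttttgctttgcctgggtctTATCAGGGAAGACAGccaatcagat
Tal1_a promoter, chr4:114728781-114729030, plus strand: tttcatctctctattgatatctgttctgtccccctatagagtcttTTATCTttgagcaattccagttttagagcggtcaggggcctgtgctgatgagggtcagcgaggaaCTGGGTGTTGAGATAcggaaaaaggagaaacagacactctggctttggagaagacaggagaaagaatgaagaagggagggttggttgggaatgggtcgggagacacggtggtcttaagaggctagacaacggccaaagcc
Lmo2_a promoter, chr2:103797893-103798142, plus strand: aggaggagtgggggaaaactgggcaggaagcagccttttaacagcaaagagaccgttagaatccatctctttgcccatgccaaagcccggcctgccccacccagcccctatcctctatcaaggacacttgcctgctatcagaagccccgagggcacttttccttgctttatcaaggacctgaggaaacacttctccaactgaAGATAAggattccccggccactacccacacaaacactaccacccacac
Nfe2_a promoter, chr15:103082119-103082368, minus strand: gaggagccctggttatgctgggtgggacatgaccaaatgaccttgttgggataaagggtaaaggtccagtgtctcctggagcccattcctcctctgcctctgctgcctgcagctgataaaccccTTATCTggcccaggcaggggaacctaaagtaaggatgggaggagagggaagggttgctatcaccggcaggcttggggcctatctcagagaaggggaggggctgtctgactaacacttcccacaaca

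Of the 16 promoters, AGATAA was found in 3 (Lmo2_a, Tal1_a and Nfe2_a), beside 9.29% of 22350 protein-coding promoters of the same length. The long-spaced composite was found in Klf1 and Tal1_a, beside 1.63% of all promoters. The short-spaced composite, with 7 bases between CTG and GATA (2.04% of all promoters), the CACCC-type letters CCACACCC (3.24%), the NF-E2 motif (TGC followed by TGAGTCA, 0.0761%) and the CTCF core motif (0.515%) were found in none of the 16. These motifs are matches of letters only and were not measured as bound sites. The composite and AGATAA can share the letters GATA. The GC content of the 16 promoters ran from 44.4% for Gfi1b to 80.0% for Klf3.

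The question for each viewpoint was how far its contacts reached. Between 10 and 100 kb the transcription factor promoters had a median of 25.1% of their cis events, with a range of 17.3 to 30.4%, beside a median of 15.9% over the 6718 viewpoints with at least 1000 events. All 16 lay above that median, and the median over the 16 was 25.4, 24.8 and 24.4% in libraries a, b and c (25.0 ± 0.556%, SD, n = 2). From 100 kb to 1 Mb their median was 13.3% beside 19.6% over all viewpoints, with 6 of 16 above. The direction of this difference turned with the Nfe2 viewpoints, which held 10.0 to 12.3%. They lie near the end of chromosome 15, with no DNA on 1 side in the outer part of this range. The part of this in their low share was not tested. From 102.5 to 252.5 kb their events were 0.199 to 0.348 times those expected at that distance upstream and 0.268 to 0.402 times downstream. From 502.5 to 997.5 kb downstream all 5 were above expectation, up to 2.33 times for Nfe2_e. Without the Nfe2 viewpoints the other 11 had a median of 20.9%, with 6 above that of all viewpoints. From 10 to 100 kb these 11 had a median of 24.8%. These are descriptions of the 16 promoters, with no test.

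Nfe2_a had the largest share in this middle range. It was 29.6, 29.8 and 31.4% in libraries a, b and c, which is higher than in 98.5% of viewpoints. Klf1 followed with 25.8, 31.1 and 31.1%, and the pooled shares of 30.4 and 30.2% do not differ beyond their intervals. Library a was the low value for Klf1 and lay outside the range of b and c. The lowest shares belonged to Ldb1 with 19.4, 16.6 and 16.9%, Klf13 with 20.5, 16.4 and 16.5%, and Klf3 with 18.9, 16.9 and 17.0%. In each of these 3 genes library a was the highest, and their exact 95% intervals of 16.6 to 18.1%, 16.8 to 18.0% and 16.5 to 18.4% overlapped, so their order is not resolved.

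**Figure D1:**
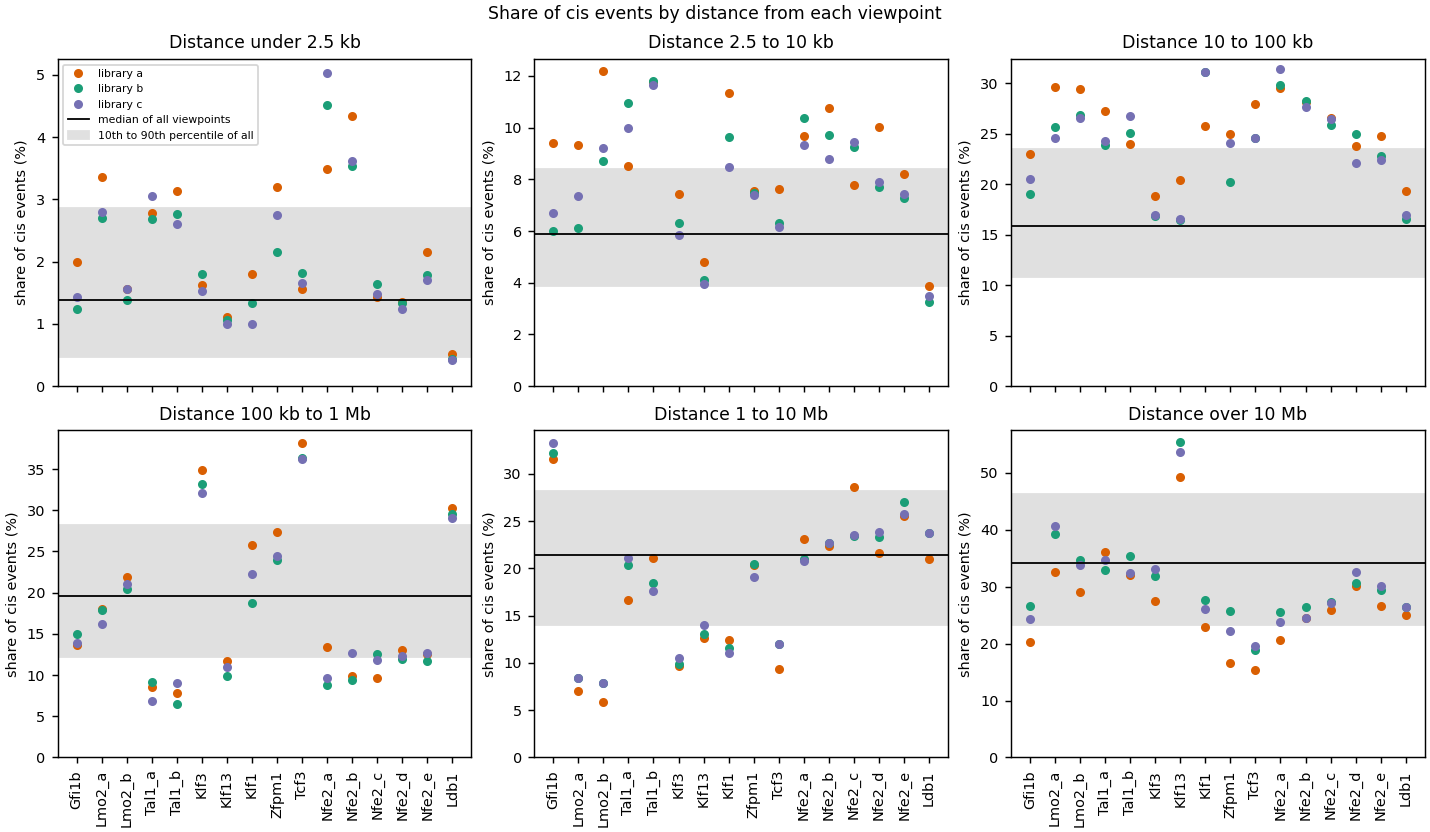
Share of cis events in 6 distance classes (y axes, percent) for the 16 viewpoints (x axes), with 1 point per library. The line is the median and the grey band the 10th to 90th percentile of all viewpoints with at least 1000 events. In the 10 to 100 kb panel every point lies above the line.

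The longer classes separated the genes differently. Tcf3, which encodes the E proteins E12 and E47, had 36.7% of its events from 100 kb to 1 Mb, the highest of the 16, and Klf3 had 33.2% and Ldb1 29.5%. Tal1_b had 7.80% and Tal1_a 8.18%, the lowest. Klf13 stood apart beyond 10 Mb, where it had 53.4% of its events beside a median of 34.1% over all viewpoints. Gfi1b had 32.5% of its events from 1 to 10 Mb, beside 21.4% over all viewpoints.

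The fall of contact with distance was summarised by the slope of log10 events per fragment on log10 distance from 10 kb to 1 Mb. The median slope was -1.09 over the 16 promoters (mean -1.09 ± 0.0174, SD, n = 2) and -0.91 over all viewpoints. Both Tal1 viewpoints fell fastest, with slopes of -1.35, -1.30 and -1.38 for Tal1_a and -1.31, -1.32 and -1.31 for Tal1_b in libraries a, b and c. The ranges of the 2 Tal1 viewpoints overlapped. Klf3, at -0.78, -0.76 and -0.79, and Ldb1, at -0.82, -0.77 and -0.78, had the shallowest slopes, and their ranges overlapped too.

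Contacts were also divided by side, upstream or downstream as the gene is read, between 2.5 kb and 1 Mb. Zfpm1 and Klf3 were the most one-sided, and their larger sides, 75.7 and 73.3%, are not ordered beyond counting error. Zfpm1 had 24.3% of its 842 events upstream (exact 95% interval 21.5 to 27.4%). Library a gave 21.4%, b 23.2% and c 27.4%, all far below an even split. The downstream side of Zfpm1 begins with its own gene body. On the opposite side Klf3 had 71.3, 73.3 and 74.7% of its events upstream and Klf13 had 71.5, 69.7 and 69.2%.

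Klf1 (62.5% upstream), Lmo2_b (65.2%) and Lmo2_a (58.0%) also leaned upstream. Ldb1 leaned the same way by less, at 53.2% (51.8 to 54.6%). Gfi1b (43.6%), Tal1_a (45.2%) and Tal1_b (38.7%) leaned downstream, each with an exact interval that excluded 50%. Tcf3 was nearly even at 50.8% (49.5 to 52.2%). For the 5 Nfe2 viewpoints, 41.1 to 48.7% of events were upstream, but chromosome 15 ends on that side. Windows there stopped short of 502.5 kb. Over both sides 277 to 281 windows were tested per Nfe2 viewpoint, beside 398 for Gfi1b. Over the 16 viewpoints the larger side held a median of 57.3% of events, beside 56.8% over all viewpoints, and without the Nfe2 viewpoints it was 61.3%.

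**Figure D2:**
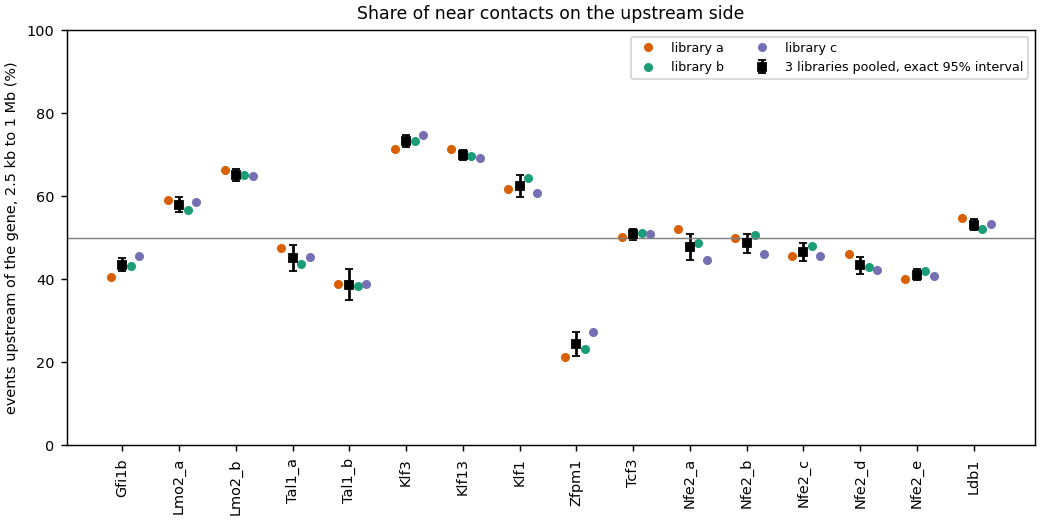
Share of events from 2.5 kb to 1 Mb that lay upstream of the gene (y axis, percent) for the 16 viewpoints (x axis). Black squares with bars are the pooled share and its exact 95% binomial interval, which covers counting error only, and coloured points are libraries. Zfpm1 is lowest at 24.3% and Klf3 highest at 73.3%.

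Observed events were then set against the number expected at the same distance from a viewpoint of equal total. By broad distance ranges, the Zfpm1 promoter had 0.24 times the expected events from 12.5 to 52.5 kb upstream and 2.12 times downstream. The library values were 0.17, 0.29 and 0.22 upstream against 2.33, 1.79 and 2.30 downstream. These ranges did not overlap. Zfpm1 also had 7 events against 55.6 expected from 52.5 to 102.5 kb upstream, a ratio of 0.13. Klf3, in contrast, had 2.82 times the expected events from 252.5 to 502.5 kb upstream and 0.28 times on the downstream side at that distance.

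**Figure D3:**
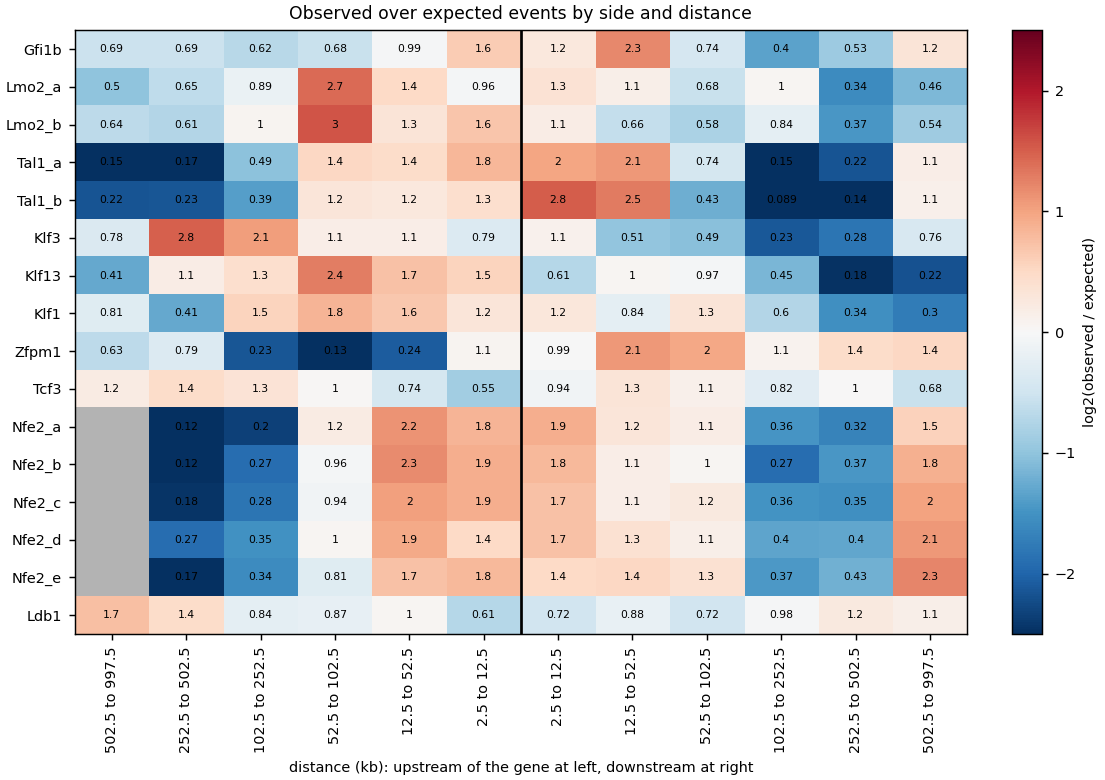
Observed over expected events for each viewpoint (rows) by distance range in kb (columns), with upstream of the gene at left and downstream at right. Colour is log2 of the ratio printed in each cell, and grey marks ranges past the end of chromosome 15. Upstream of Nfe2 the range from 252.5 to 502.5 kb is present only in part. Zfpm1 is below expectation from 12.5 to 252.5 kb upstream, and Klf3 is above it from 102.5 to 502.5 kb upstream.

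Next, each 5 kb window from 2.5 kb to 1 Mb was tested for more events than expected with a negative binomial model fitted to all viewpoints. A window was called when its Benjamini-Hochberg adjusted p was under 0.05 and it was above expectation in every library. Among the 16 viewpoints 12 of 5756 windows were called, beside 0.0695% of 2642484 windows over all viewpoints. The share among the transcription factor windows was 0.208%. Calls fell on 9 of the 16 viewpoints and 6 of the 10 genes, where 15.4% of all tested viewpoints, and 15.7% of those within the same range of events, had a call. These shares are by viewpoint and not by gene. At Lmo2, Tal1 and Nfe2 the called windows of different viewpoints overlap, so those viewpoints are not separate counts. The 12 windows formed 10 regions, with 8 windows upstream and 4 downstream of the gene.

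On simulated data 14.7% of the calls of this test were false, above the nominal level. The calls also depended on how the spread was estimated. No window of the 16 was called when the highest counts were kept in the estimate of the spread. That setting called 0.00454% of all windows and gave 1.52% of all viewpoints a call. In the main test 357 windows of the 16 viewpoints (6.20%, beside 4.84% over all viewpoints) had an unadjusted p under 0.05. A Poisson test called 346, and it called 5.65% of all windows. Only 4 were called, on 4 viewpoints, when each side had its own total, which called 0.0448% of all windows and gave 10.7% of all viewpoints a call.

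**Figure D4:**
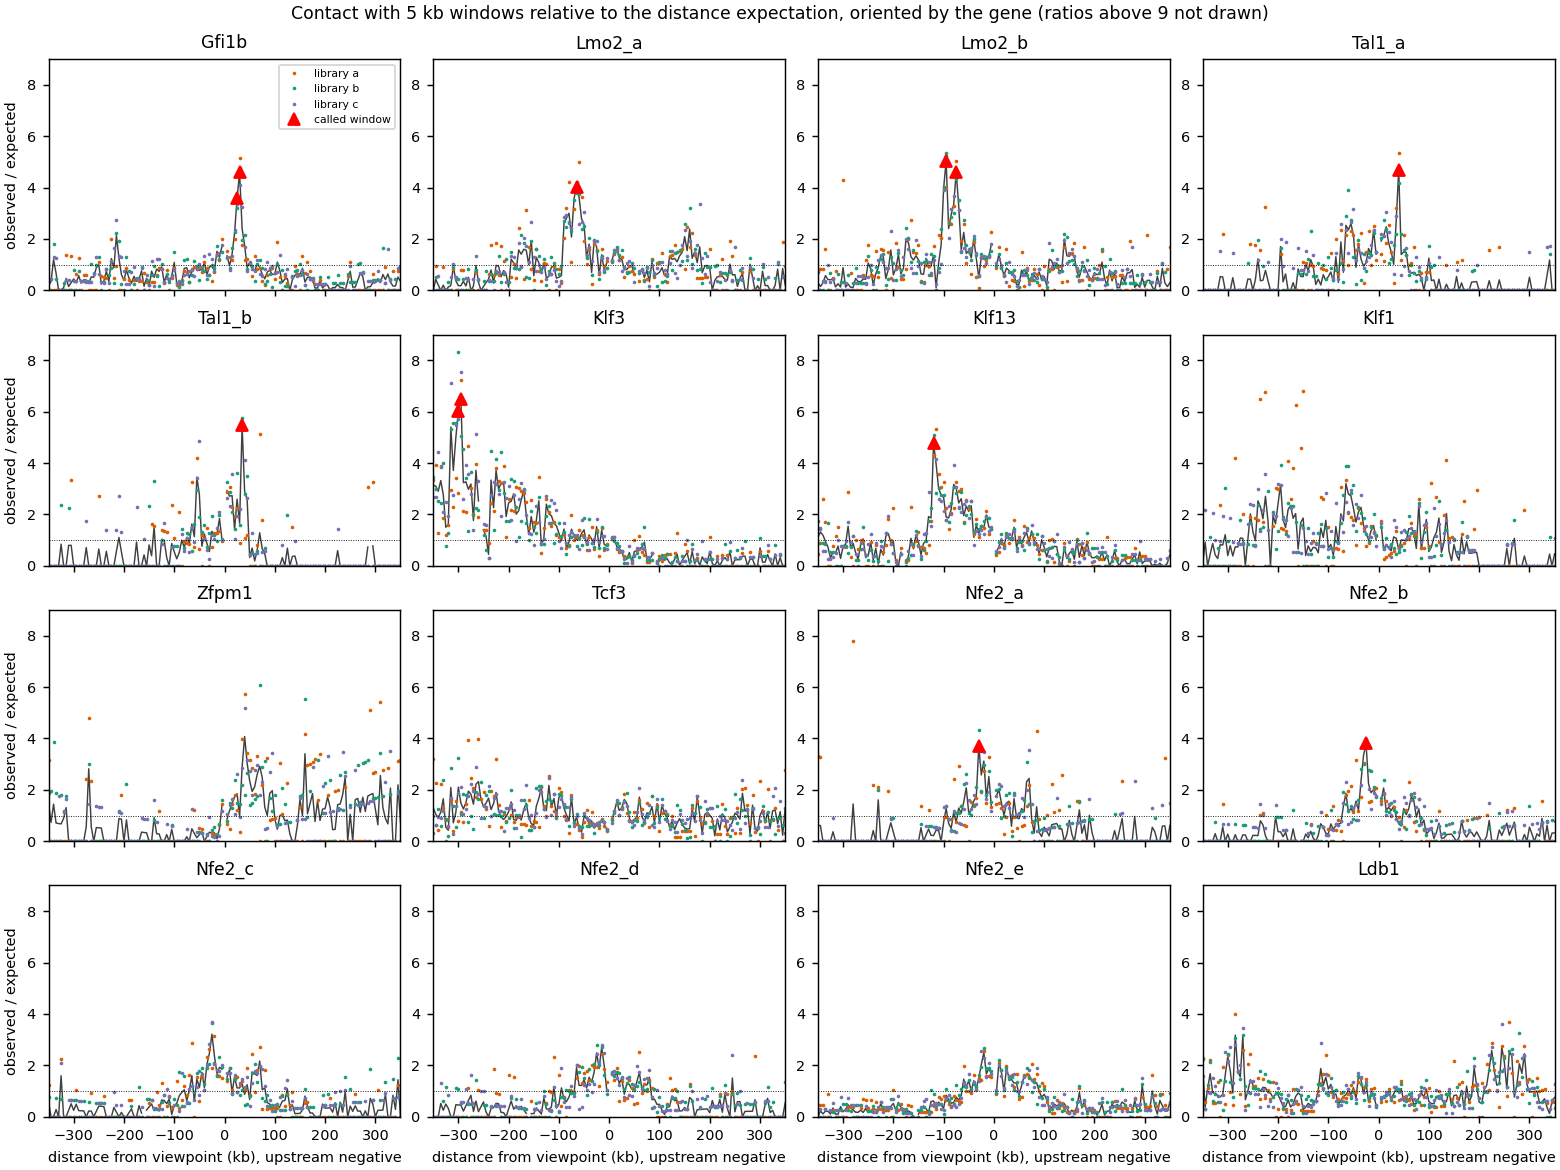
Observed over expected events (y axis) in 5 kb windows by distance from the viewpoint in kb (x axis, upstream negative) for the 16 viewpoints. The line pools the libraries, points are single libraries, red triangles are called windows, and the dotted line marks expectation. The called windows stand at ratios of 3.59 to 6.50.

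Gfi1b showed the call of lowest adjusted p. From its viewpoint, chr2:28476959-28477976, its 2 adjoining windows, chr2:28444968-28454967, lay 22.5 to 32.5 kb downstream of the promoter and held 119, 151 and 146 events in libraries a, b and c, against 103 expected over the 3 libraries. The ratios were 4.80, 3.94 and 3.70 (4.31 ± 0.692, SD, n = 2) over the merged region, which was not tested as a whole. The adjusted p of its windows was 0.000322 at 30 kb and 0.0178 at 25 kb. All 3 libraries were well above expectation. The annotation there holds a U6 small RNA gene and no protein-coding gene. The region held no called window in 1 of 13 alternatives, the one that kept the highest counts, and the 25 kb window does not pass an adjusted p under 0.01.

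Within the Gfi1b region the leading fragment was intergenic, chr2:28446853-28447739, and had 8, 9 and 9 events against 4.23 expected. Its nearest protein-coding gene, Gtf3c5, lay 7.58 kb away. The leading fragment is the fragment of highest ratio that had events in every library. The region held 2 composite motifs outside the leading fragment, the long-spaced one in a fragment with 2, 9 and 8 events and the short-spaced one in a fragment with 7, 7 and 12.

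Lmo2, the bridging LIM-only protein, was called from both of its promoters (chr2:103797392-103798432 and chr2:103809278-103810265), and all calls were upstream. Lmo2_a, the upstream one, called chr2:103730412-103735412, 65.0 kb away, with 21, 32 and 32 events against 21.0 expected and ratios of 4.22, 3.80 and 4.19. Its adjusted p was 0.0225. Lmo2_b called chr2:103732272-103737271, 75 kb away, with 26, 48 and 53 events against 27.7 expected (ratio 4.75 ± 0.378, SD, n = 2, adjusted p of 0.00791). The 2 windows overlap, so both promoters pointed to the same intergenic stretch.

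Per 100000 cis events, the interval called from Lmo2_b had 2437, 2101 and 1607 events from Lmo2_a and 2129, 1626 and 1759 from Lmo2_b. These library values overlapped. A further region, chr2:103712272-103717271, was called from Lmo2_b 95 kb upstream, with 17, 48 and 48 events against 22.5 expected and an adjusted p of 0.00641. From Lmo2_a the same interval gave 1345, 858 and 918 events per 100000, beside 1392, 1626 and 1593 from Lmo2_b. Library a was similar for both promoters, and libraries b and c were higher from Lmo2_b. This difference was not tested because the interval was chosen by its count from Lmo2_b. The calls of both promoters were lost with totals per side. The Lmo2_a call was also lost without library c and with chromosome X and a deep stretch of chromosome 9 left out of the fit, whereas the Lmo2_b calls remained without any single library.

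Tal1 was called downstream, from both of its promoters (chr4:114728415-114729059 and chr4:114730186-114730575), within or beside Pdzk1ip1, a gene of a membrane-associated protein that neighbours Tal1. A well-known erythroid enhancer of Tal1 lies downstream of the gene near Pdzk1ip1, given here as background. Tal1_a called chr4:114766237-114771237, 40.0 kb away, with 15, 19 and 18 events against 11.1 expected (ratio 4.92 ± 0.621, SD, n = 2, adjusted p of 0.00699). Tal1_b called chr4:114762881-114767880, 35.0 kb away, with 11, 16 and 17 events against 8.04 expected (ratio 5.45 ± 0.0963, SD, n = 2, adjusted p of 0.00169). Its ratios were 5.38, 5.76 and 5.27 in libraries a, b and c, a wider spread than this SD.

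The 2 Tal1 intervals overlap, and both promoters contacted both. Per 100000 cis events the interval called from Tal1_a had 2609, 1963 and 2113 events from Tal1_a and 1828, 2399 and 3478 from Tal1_b, which overlapped. The interval called from Tal1_b had 2435, 1756 and 1995 from Tal1_a and 2872, 2952 and 2957 from Tal1_b, which did not overlap, and this difference was not tested because the interval was chosen by its count from Tal1_b. The leading fragment from Tal1_a lay 0.049 kb outside Pdzk1ip1, at chr4:114766553-114766895, with 1, 4 and 3 events against 1.02 expected. From Tal1_b it lay in a coding exon of Pdzk1ip1, chr4:114765316-114765548, with 2, 1 and 3 events. Pdzk1ip1 is itself a targeted promoter, and 15 events against 4.51 expected fell on the 4 fragments beside its viewpoint from Tal1_a, 5 in each library. The part of co-capture in this value was not tested. With fragments next to targeted fragments left out both Tal1 calls remained. The Pdzk1ip1 viewpoint, 32.6 kb from Tal1_a and 30.9 kb from Tal1_b, lies outside both called windows. That setting could therefore remove few or no fragments inside them. With the expectation also scaled by listed fragments the Tal1_a call was lost.

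Klf3, viewed from chr5:65194070-65195240, was called at the greatest distance. Its 2 adjoining windows, chr5:64892155-64902155, lay 292.5 to 302.5 kb upstream and held 18, 37 and 35 events against 14.4 expected (ratio 5.85 ± 1.15, SD, n = 2). The merged region was not tested as a whole, and its windows had an adjusted p of 0.0173 at 295 kb and 0.0356 at 300 kb. Library a, at 5.04, was lower than b and c, at 6.68 and 6.65. The leading fragment was intergenic, chr5:64896891-64898099, 154 kb from Tbc1d1, and had 1, 3 and 7 events against 0.68 expected. The call was lost without library c and with totals per side. The part of the one-sided contact of this promoter in the latter loss was not tested.

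Klf13, viewed from chr7:71083235-71084991, was called 120 kb upstream, at chr7:71201613-71206613, with 28, 47 and 44 events against 25.0 expected. The ratios were 4.31, 5.09 and 4.75, and the adjusted p was 0.0119. The region is intergenic, and the nearest protein-coding gene to its leading fragment, chr7:71202838-71203428, was Trpm1 at 95.3 kb. That fragment had 7, 5 and 4 events against 2.17 expected and held a composite motif, a match present in 6.75% of listed fragments of like length. The call was lost with totals per side.

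Nfe2 was called upstream from 2 of its 5 viewpoints, in both cases within Copz1, which encodes a coatomer subunit of vesicle transport. The 5 viewpoints lie between chr15:103082104-103082480 (Nfe2_a) and chr15:103088460-103089222 (Nfe2_e). Their expectation was not rescaled for the windows missing past the end of chromosome 15, so their window ratios read high. The part of this in the calls was not tested. Nfe2_b called chr15:103105845-103110845, 25.0 kb away, with 22, 43 and 47 events against 29.4 expected (ratio 3.74 ± 0.175, SD, n = 2, adjusted p of 0.0140). Nfe2_a called chr15:103109792-103114792, with 10, 23 and 17 events against 13.5 expected, at an adjusted p of 0.0498. The Nfe2_a call was at the edge of the threshold and was lost without each of the 3 libraries in turn. Both Nfe2 calls were lost with the expectation also scaled by listed fragments. That setting called 17 windows on 8 of the 16 viewpoints, and gave 26.5% of all viewpoints a call.

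The Copz1 interval called from Nfe2_b was also read from the other Nfe2 viewpoints. Against an expectation per fragment, the ratios of the interval called from Nfe2_b were 2.44 from Nfe2_a, 2.68 from Nfe2_b, 2.24 from Nfe2_c, 1.73 from Nfe2_d and 1.86 from Nfe2_e. For Nfe2_c the 5 kb window at that place had 16, 45 and 45 events against 33.0 expected and was not called (adjusted p of 0.0794). Its library a ratio of 1.91 was below the 3.65 and 3.67 of b and c. The windows at this place were not called for Nfe2_e (adjusted p of 0.246) either, nor was the one 25 kb from Nfe2_a (0.464), which adjoins its called window. The nearest windows by adjusted p for Nfe2_d and Nfe2_e lay 935 and 750 kb downstream, with 11 and 23 events in all, and were not called at 0.130 and 0.151.

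Klf1, Zfpm1, Tcf3 and Ldb1 had no call. Their viewpoints were chr8:87424743-87426185, chr8:124805616-124806418, chr10:79895698-79896506 and chr19:46111646-46114300. The Ldb1 fragment holds 2 annotated transcript starts. For Zfpm1 the window of lowest adjusted p lay within its own gene, chr8:124843517-124848517, 40.0 kb downstream, with 13, 6 and 18 events against 9.07 expected. The ratios were 5.73, 1.81 and 5.17, so library b was low, and the adjusted p was 0.0517. Tcf3 and Ldb1 gave their lowest values, 0.472 and 0.362, at 950 and 940 kb upstream, from 14 and 15 events. Klf1 and Zfpm1 had 2177 and 1527 events in all, and Tcf3 and Ldb1 7669 and 9894. Among the called viewpoints, Tal1_b had 1500 and Nfe2_a 2007, and the part of depth in the missing calls was not tested.

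Klf1 lies among many captured promoters, with 11 other viewpoints within 100 kb. Counts beside single neighbours were small and uneven. Beside Calr, the gene of the chaperone calreticulin, 54.6 kb upstream, Klf1 had 1, 5 and 9 events, or 15 against 4.10 expected, and beside Prdx2, the gene of a peroxiredoxin, 68.1 kb downstream, it had 0 against 3.32. Both were named after their values were seen. Fragments beside all 34 other viewpoints within 1 Mb of Klf1 had 1.24 times the expected events (1.13 ± 0.244, SD, n = 2). The library ratios were 0.96, 1.17 and 1.44 in a, b and c, so library a was not above expectation. For Tcf3, with 54 other viewpoints, the ratio was 0.94, and for the Nfe2 viewpoints it ran from 1.12 to 1.96. The highest ratios were 2.67 for Klf13, from 20 events beside 4 other viewpoints, and 2.27 for both Tal1_a and Tal1_b.

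Sequences from 3 called regions follow. The Lmo2_b and Klf13 stretches are the leading fragments in which a composite motif was found, and the Gfi1b stretch holds the short-spaced composite of the region with the lowest adjusted p, in the window that does not hold its leading fragment. They were chosen after their values were seen, and other composites in the called regions are not shown. Each composite was found in 1 of 10 leading fragments. Of listed fragments of like length, 9.31% hold the short-spaced composite for the Lmo2_b fragment and 6.75% the long-spaced one for the Klf13 fragment. The sequences are from the plus strand of mm9, and capitals mark the composite match on either strand.
Lmo2_b region, centre of the leading fragment, chr2:103736294-103736533: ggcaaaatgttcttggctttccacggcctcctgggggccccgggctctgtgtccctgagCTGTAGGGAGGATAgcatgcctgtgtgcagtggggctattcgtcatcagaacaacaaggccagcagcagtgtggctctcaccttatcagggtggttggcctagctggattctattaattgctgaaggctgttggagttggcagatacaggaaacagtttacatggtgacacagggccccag
Klf13 region, centre of the leading fragment, chr7:71203013-71203252: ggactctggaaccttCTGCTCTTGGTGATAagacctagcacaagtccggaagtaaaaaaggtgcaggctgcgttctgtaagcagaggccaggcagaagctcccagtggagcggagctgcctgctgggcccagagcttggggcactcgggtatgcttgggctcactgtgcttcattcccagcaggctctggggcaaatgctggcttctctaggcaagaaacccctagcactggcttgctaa
Gfi1b region, around the composite motif, chr2:28452999-28453132: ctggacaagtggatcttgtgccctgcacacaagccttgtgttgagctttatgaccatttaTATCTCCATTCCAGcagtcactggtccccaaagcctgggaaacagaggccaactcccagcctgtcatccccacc

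The Lmo2_b fragment had 2, 8 and 9 events against 2.40 expected, and the Klf13 fragment 7, 5 and 4. The 12 called windows overlap at Lmo2, Tal1 and Nfe2, so a match there can count for 2 windows, whereas the genome stretches do not overlap. Across the 12, AGATAA was found in 9, beside 95.9% of all 5 kb stretches of the genome, so its presence does not set them apart. The long-spaced composite was found in 7 of 12 beside 46.3%, the short-spaced composite in 3 beside 51.7%, and CCACACCC in 6 beside 25.4%. The NF-E2 motif was found in 1, the Copz1 window of Nfe2_a, beside 2.47%. The CTCF core was found in 1, the Tal1_a window, beside 2.40%.

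A list of 41 other erythroid regulators, chosen with earlier results of these data known, gave the wider pathway. Viewpoints existed for 24 of these genes, 25 viewpoints in all, and 3 of them (12.0%) had a called window, near the 15.4% of all viewpoints. The 3 were Nfe2l2 (events in all libraries 1864, adjusted p of 0.0084), Bach1 (adjusted p of 0.0353) and Mafk (adjusted p of 0.0305), all from the list of NF-E2 partners and relatives, where 3 of 5 viewpoints were called. Mafk encodes a small MAF partner of Nfe2 and Bach1 a repressor that competes for the same sites. The negative binomial test called 0 windows for the 7 viewpoints of partners in the GATA1, TAL1 and LDB1 complex, the 6 of the KLF and SP family and the 7 of other regulators. At an unadjusted p under 0.05 these groups had 120 of 2682, 108 of 2376 and 92 of 2775 windows, and the NF-E2 list had 84 of 1988, where 4.84% of windows over all viewpoints passed. The median events per viewpoint of the 3 groups with no call were 1888, 4631.5 and 8061.

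A total of 2 pairs of members share a chromosome, and their promoters lie 37.4 Mb (Klf1 and Zfpm1) and 75.3 Mb (Gfi1b and Lmo2) apart. From Zfpm1, the 500 kb around the Klf1 promoter held 5, 6 and 7 events, 18 in all, and 20 neighbouring windows of the same length held a median of 2 and at most 13 over the 3 libraries, so all 20 had fewer. From Klf1, the window around Zfpm1 held 1, 5 and 3 events, 9 in all, beside a pooled median of 2.5 and a highest value of 21, and 17 of 20 neighbours had fewer. From Gfi1b, the window around Lmo2 held 2, 7 and 6 events, 15 in all, beside a pooled median of 0 and a highest value of 9, so all 20 neighbours had fewer. The reverse view from Lmo2_a held 2, 4 and 2 events, 8 in all, beside a pooled median of 4 and a highest value of 10, and 15 of 20 neighbours had fewer. From Lmo2_b it held 1, 1 and 6 events, also 8 in all, beside a pooled median of 3.5 and a highest value of 25, with 15 of 20 neighbours lower. The neighbours were set by length and distance, and how many listed fragments or captured promoters they held is not given. Klf1 has 34 other viewpoints within 1 Mb. Gfi1b had 2076 events beyond 10 Mb in all. The window counts are small, and no test was made.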

How the data were processed

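Reads were trimmed with Trim Galore and aligned with Bowtie to mm9, and unique ligation events per DpnII fragment were counted by the authors. Versions are not given in the sources used here. The deposited values are a signal: events per 100000 cis events of a viewpoint in each of 3 libraries, with targeted fragments left out. Counts were worked back, taking the smallest value of a viewpoint and library as 1 event, and 100% of values were whole multiples of it within 0.01 of an event. The 3 columns carry no replicate name and were called a, b and c.

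The expectation of a 5 kb window was the pooled share at its distance times the viewpoint total. The pooled share was the summed events over the summed totals of all viewpoints with at least 1000 events, so deeper viewpoints weighed more. The viewpoint total was taken over the windows present, with no rescaling where a chromosome ends. Dispersion was estimated by moments in 20 distance groups, of which 18 held windows, after the top 0.1% of standardised counts were left out. Upper-tail negative binomial p-values were adjusted by Benjamini-Hochberg over all windows (scipy 1.17.1, numpy 2.4.6, pandas 2.3.3, Python 3.11.15). Changes were simulated only in nearer windows with an expected count above 5, so recovery in other windows was not measured. The lowest-p windows of Tcf3 and Ldb1, with 2.86 and 2.77 events expected, lie outside this setting. Within it, 92% of 8-fold and 96% of 12-fold changes were called. Changes of the size called here were recovered only in part or seldom, 54% at 5-fold and 14% at 3-fold. False calls exceeded the nominal level, with 14.7% of simulated calls on unchanged windows. A fragment-based expectation was used for single fragments and for intervals shared by viewpoints of a gene. Exact 95% binomial intervals cover counting error only. Genes were annotated with GENCODE vM1.

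Every member is described. Adjoining called windows were merged and up to 3 regions per viewpoint named by ratio, and a viewpoint without a call is given by its lowest adjusted p, except that the window of Klf1 is not reported here. The members and lists were chosen with earlier results of these data known. Alternatives covered the dispersion, window size, expectation, filters and each library left out.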

Additional observations from a re-analysis of the deposited data

How the results depend on the processing

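The 12 called windows on 9 viewpoints became 0 on 0 with no trimming before the dispersion and 32 on 13 with the top 1 percent left out. They became 346 windows on 16 viewpoints under a Poisson model and 4 on 4 with totals per side. At an adjusted p under 0.01 there were 5 on 4, and with single DpnII fragments 1 on 1. With chromosome X and the deep chromosome 9 stretch left out of the fit there were 9 on 7, beside 12.9% of all viewpoints with a call. Over all viewpoints the share with a call was 15.4% in the main test, 1.52% untrimmed and 37.1% with more trimming. It was 99.8% under Poisson, 10.7% with totals per side, 6.996% at the stricter threshold and 7.84% with single fragments. With single fragments, 1 of the 16 viewpoints was no excess over that share. With viewpoints of at least 5000 events, 5 of 9 tested viewpoints had a call, because fewer were tested, beside 718 of 4347 (16.5%) over all viewpoints. Leaving out each library gave 9 to 13 windows on 7 to 10 viewpoints, beside 1248 to 1533 windows and 11.4 to 13.6% of viewpoints over all. Over all viewpoints, the 1836 called windows became 120 without trimming, 5951 with more trimming, 149261 under Poisson, 3832 when scaled by listed fragments, 1184 with totals per side, 751 at the stricter threshold and 1182 with single fragments. The median share of events from 2.5 kb to 1 Mb was 49.3%, and 48.6 to 49.9% without each library, and became 39.6% from 10 kb and 41.2% to 500 kb by narrowing the range. The median slope of -1.09 stayed within -1.10 to -1.08 without each library, and was -1.04 at 5000 events or more and -1.34 from 25 to 500 kb. The larger side, 57.3%, was 57.5 to 57.7% without each library, 59.0% from 10 kb, 61.3% without the Nfe2 viewpoints (chosen after seeing the data), and 64.1% when divided by listed fragments, which the end of chromosome 15 affects for Nfe2. Where a cause is not named, the cause was not tested. No paired analysis was possible because there is a single group and the columns carry no replicate number. The shallowest viewpoints were Tal1_b and Zfpm1, with 1500 and 1527 events, so their values rest on the fewest counts.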
